A study of Rattus norvegicus with 19 samples.

Results

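The genes described here make, coat and break down liver triglyceride: the synthesis enzymes Gpam, Lpin1, Dgat1 and Dgat2, the droplet proteins Plin2 and Cideb, and the lipases and patatins Pnpla2, Pnpla3, Pnpla5 and Mgll. Members were the non-control probes whose name in the scanner files, or whose current symbol through accession, gene ID or synonym, is one of these 10 symbols. They came to 15 probes of 41012, and all 15 passed the filter on dim spots. Each gene was tested through its brightest kept probe, and the 10 genes stood among 22007 features tested. Old array names hid some members, since Plin2 was found through the name ADRP and Pnpla3 through its gene ID and the name Adpn.

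Livers came from 19 adult male wild-type Wistar rats, housed singly. They were 8 weeks old when assigned to 3 diets, which they ate during 4 months. In the control group (7 rats) the diet took 70% of its energy from carbohydrate, 10% from fat and 20% from protein. The high protein diet (6 rats) took 45% from carbohydrate, 10% from fat and 45% from protein, most of it casein, and the high fat diet (6 rats) took 20% from carbohydrate, 60% from fat and 20% from protein. More fat therefore came with less carbohydrate, and the 2 changes cannot be told apart. All rats were killed fed, in the early morning. Each array set the Cy5-labelled RNA of 1 rat against a Cy3-labelled pool of the rats' liver RNA, always in that dye orientation, and a value is the log2 ratio of rat to pool. A value of 0 thus means the level of the pool, and levels of different probes are not compared.

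The share of spots well above background in Cy5 ranged from 54.2% to 67.5% over the arrays. All 8 hepatocyte markers were measured, and their median log2 ratio ran from 0.11 to 0.40 in control, from 0.26 to 0.52 in high protein and from 0.14 to 0.28 in high fat livers. Control 6 stood apart: the median log2 ratio of the 6 measured lymphocyte markers (of 14 listed) was 2.23 there and between -0.97 and -0.48 in the other 18 livers, and the SD of its log ratios was 0.45 against at most 0.29 elsewhere. Without control 6 the counts of members called were the same, 3, 0 and 4 in the comparisons below. In whole liver, fewer cells of a type and less RNA per cell cannot be told apart.

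In liver, triglyceride is built by adding fatty acids to glycerol 3-phosphate, removing the phosphate and adding a last acyl chain, and the product is stored in droplets or loaded onto very low density lipoprotein. Patatins are a family of lipid hydrolases named after a potato storage protein. Pnpla2 is the main triglyceride lipase of many tissues, while Pnpla3 sits on droplets, is known for its link to fatty liver in people, and is a known target of the lipogenic factors that respond to insulin and carbohydrate.

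Of the 3 promoters shown, those of Pnpla5 and Pnpla3 belong to the members with the largest differences, and that of Plin2 belongs to the other member that fell on the high fat diet against control. Each run holds the 250 bases before the annotated start (RefSeq, build GRCr8), written 5′ to 3′ on the gene's strand: Pnpla5 on the minus strand at chr7:117137037-117137286, Pnpla3 on the plus strand at chr7:117173278-117173527 and Plin2 on the minus strand at chr5:106229019-106229268. Capitals mark a match, on either strand, to CCAAT, to the GC box GGGCGG or to the E-box CACGTG.
Pnpla5: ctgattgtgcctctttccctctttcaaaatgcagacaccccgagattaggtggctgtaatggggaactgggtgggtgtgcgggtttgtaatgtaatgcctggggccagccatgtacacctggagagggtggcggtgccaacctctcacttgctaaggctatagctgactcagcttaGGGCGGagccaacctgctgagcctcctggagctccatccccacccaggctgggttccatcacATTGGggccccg
Pnpla3: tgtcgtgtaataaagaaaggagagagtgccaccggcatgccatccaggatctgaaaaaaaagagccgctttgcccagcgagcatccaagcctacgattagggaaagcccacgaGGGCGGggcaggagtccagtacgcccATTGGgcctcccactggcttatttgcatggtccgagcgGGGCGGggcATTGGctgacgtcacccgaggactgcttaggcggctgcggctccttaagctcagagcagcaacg
Plin2: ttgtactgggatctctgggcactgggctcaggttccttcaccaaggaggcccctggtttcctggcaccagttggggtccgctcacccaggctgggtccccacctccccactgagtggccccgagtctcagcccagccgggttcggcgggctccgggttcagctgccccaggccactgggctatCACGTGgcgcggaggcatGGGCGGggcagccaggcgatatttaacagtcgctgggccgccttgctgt
The Pnpla3 run held 2 GC boxes and 2 CCAAT motifs, and the Pnpla5 run held 1 of each. The windows searched also took in the first 50 bases of the transcript, and 8 of 10 members had at least 1 (Dgat1 and Dgat2 were not in the table). Plin2 had 2, for 2 annotated starts, and the run of the other start is not shown. A CCAAT motif was found for 6 of these 8 members (for Plin2 only in the window of the start not shown) and in 37.5% of all 33469 promoter windows, and a GC box for 5 of 8 and in 33.1%. The E-box was found for 2 of 8 members, Plin2 and Mgll, and in 6.42% of all windows. None of the 8 held TCACNCCAC, a sterol response motif found in 1.12% of windows or TATAAA, found in 14.2%. These are matches of letters only.

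Against control, the high fat livers had lower Pnpla5, Pnpla3 and Plin2, by 5.01-fold, 4.74-fold and 1.92-fold. No member rose. Of 10 members 3 were called by limma at an adjusted p under 0.05, all lower, against 3.63% of all 22007 features called, 1.8% lower and 1.83% higher. The median difference over the 10 members was -0.05 (log2), against -0.01 over all features. Against the high protein livers, which also ate little fat, high fat livers had lower Pnpla5, Pnpla3 and Gpam and higher Cideb: 4 of 10 members were called, 3 lower and 1 higher, with 6.99% of all features called, 3.61% lower and 3.38% higher. The hepatocyte marker median of all 6 high fat livers lay below that of 5 of the 6 high protein livers, and the summed log2 ratio of the 8 markers ran from 3.23 to 3.32 on high fat and from 3.25 to 3.50 on high protein. The part of this in the 4 calls was not tested. Between high protein and control livers no member was called by limma, and 0.395% of all features were called. A moderated F test over the 3 diets called 3 members, Pnpla5, Pnpla3 and Plin2 (adjusted p = 0.00132, 0.00974 and 0.0354), and 6.55% of all features. The 3 comparisons share samples pairwise and are not independent.

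**Figure D1:**
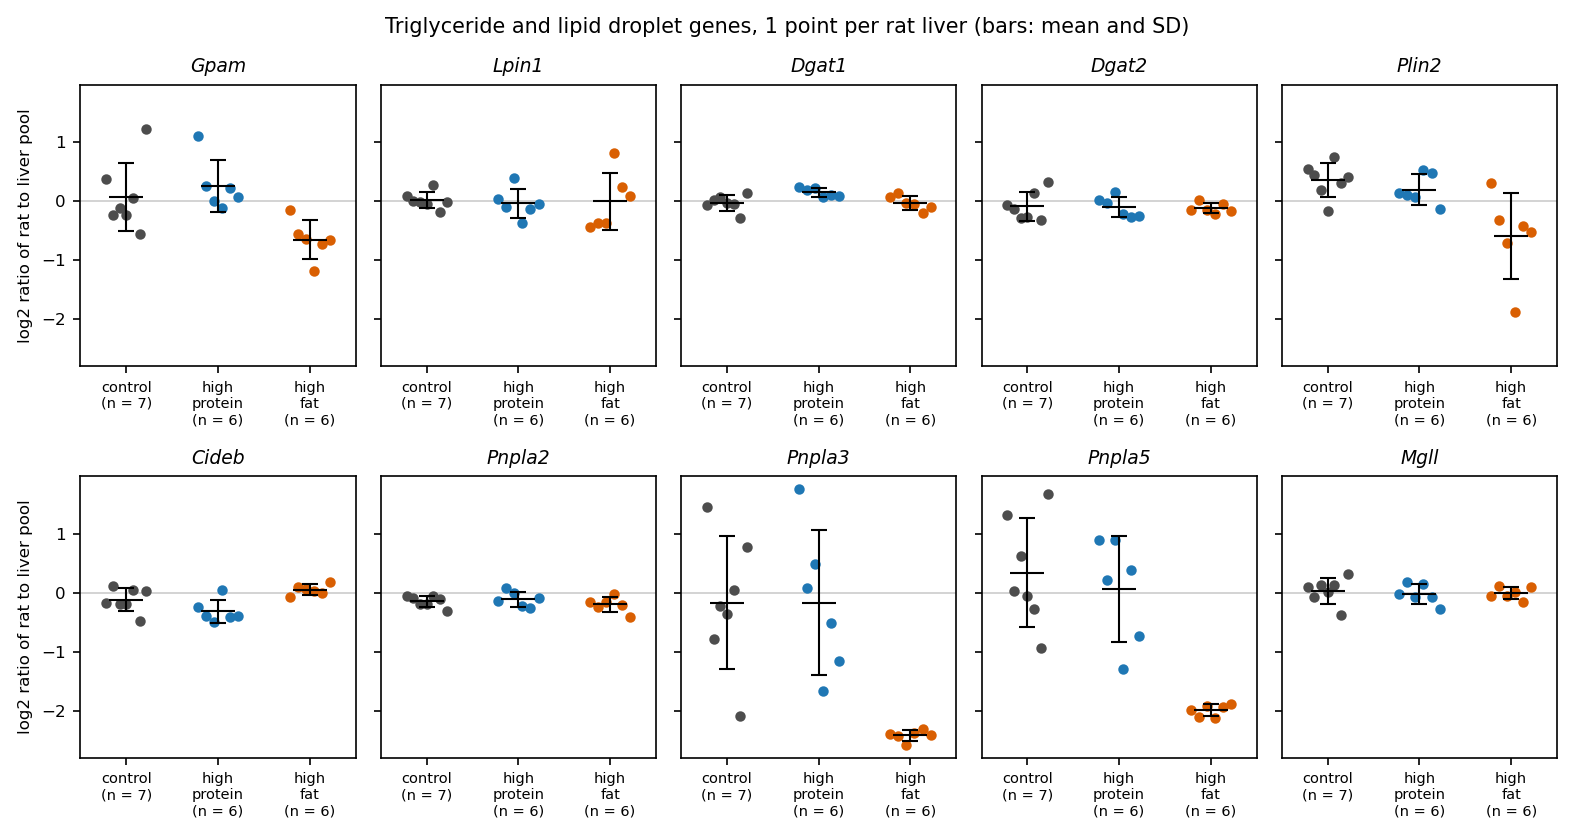
Log2 ratio of each rat's liver RNA to the liver pool for the 10 genes (1 probe each), by diet; points are single rats, horizontal bars the mean and vertical bars the SD of 7 control, 6 high protein and 6 high fat rats. The 6 high fat values of Pnpla5 and of Pnpla3 lie below every value of the other diets and within 0.24 and 0.27 of each other.

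Synthesis begins with Gpam, the mitochondrial acyltransferase that adds the first fatty acid to glycerol 3-phosphate. Its log2 ratio ran from -0.56 to 1.22 in control livers (median -0.12), from -0.12 to 1.11 in high protein livers (median 0.15) and from -1.19 to -0.16 in high fat livers (median -0.65). All 6 high fat livers lay below every high protein liver, and 5 of 6 lay below every control liver, high fat 1 being the exception. Gpam fell on high fat against high protein (-0.91 ± 0.25 SE, log2, 1.88-fold, limma adjusted p = 0.0305). Against control the difference was -0.73 ± 0.24, which did not pass (adjusted p = 0.114), and high protein minus control was 0.19 ± 0.24 (adjusted p = 0.751). The high protein call did not hold when high protein 1, 2 or 5 or high fat 3, 4, 5 or 6 was left out (adjusted p between 0.05 and 0.0768). It was also lost with the array slide as a fixed block (-0.59, adjusted p = 0.416), where only slide 1 holds both diets, and there the difference was -0.65.

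Lpin1, a phosphatidate phosphatase that also acts as a transcriptional coactivator, was called in no comparison with either of its 2 probes. Its main probe ran from -0.18 to 0.28 in control, from -0.37 to 0.39 in high protein and from -0.44 to 0.82 in high fat livers. The high fat livers split most widely, with high fat 1, 2 and 3 below every control liver and high fat 4 above every control liver. Their mean differed from control by -0.02 (95% confidence interval -0.37 to 0.32). For the other probe, A_44_P466700, the difference was -0.05 (-0.24 to 0.14).

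Dgat1 and Dgat2, unrelated enzymes that both add the last fatty acid, differed little. The main Dgat1 probe gave high fat minus control 0.00 (95% confidence interval -0.13 to 0.14), high protein minus control 0.18 (0.05 to 0.32, limma adjusted p = 0.205) and high fat minus high protein -0.18 (-0.32 to -0.04, adjusted p = 0.123). The dimmer Dgat1 probe, A_44_P515334, lies in the same transcript and separated the high protein livers. It ran from 0.05 to 0.22 in high protein livers, from -0.35 to 0.04 in control livers and from -0.41 to -0.05 in high fat livers, so all 6 high protein livers lay above the other 13. In the fit over all 25292 kept probes this probe was higher on high protein than on control (0.30 ± 0.07, limma adjusted p = 0.0446, 0.447% of probes called) and lower on high fat than on high protein (-0.39 ± 0.07, adjusted p = 0.00128, 7.08% of probes called). The first of these calls was lost in 15 of 19 omissions of 1 rat (any high protein rat, any control rat but control 7, or high fat 2, 3 or 5; adjusted p up to 0.12). It was also lost with normexp on every spot, processed signals, Cy5 alone, no filter, the deposited matrix and the slide as a fixed block (adjusted p between 0.0551 and 0.101). The second was lost only with the slide block (-0.32, adjusted p = 0.127) among the settings tried. The 2 Dgat1 probes agree in sign in both comparisons and disagree in whether they pass.

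Dgat2 had 3 probes and none was called. The main probe ran from -0.32 to 0.32 in control, from -0.28 to 0.15 in high protein and from -0.21 to 0.02 in high fat livers, and the groups overlapped throughout. High fat minus control was -0.03 (95% confidence interval -0.24 to 0.17) and high fat minus high protein -0.02 (-0.23 to 0.19). For the other probes, A_44_P180012 and A_43_P15649, high fat minus control was -0.10 and -0.07.

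Among droplet proteins, Plin2 coats droplets in most cells that store lipid. Its single probe ran from -0.17 to 0.75 in control livers (median 0.41), from -0.14 to 0.53 in high protein livers (median 0.12) and from -1.88 to 0.31 in high fat livers (median -0.47). In background-subtracted Cy5 signal these high fat livers ranged from 1504 to 6972 and the control livers from 5583 to 10866. High fat 4 was lowest and high fat 1 lay among the controls, while the other 4 high fat livers lay below every control liver. Plin2 fell on high fat against control (-0.94 ± 0.24 SE, log2, limma adjusted p = 0.0282). The model shares 1 spread over the diets, whereas the SD was 0.72 in high fat, 0.29 in control and 0.25 in high protein livers. This SE is thus too small for the spread of the high fat livers, and the p, like that of the F test, is approximate. The call against control was lost when control 1, control 2, control 5 or high fat 3 was left out (adjusted p = 0.0604, 0.0519, 0.0614 and 0.0604). With the slide as a fixed block it was -0.70 (adjusted p = 0.222), and within slides 1, 2 and 3 the difference was -0.24, -0.64 and -1.13. Against high protein the difference was -0.79 ± 0.25 and did not pass (adjusted p = 0.0592). It passed without high fat 1 (-0.97, adjusted p = 0.0126) and with Cy5 alone (-0.88), with scaling between arrays (-0.76) or with the deposited matrix (-0.86).

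Cideb, a protein of droplets and of lipoprotein loading in hepatocytes, was the member that rose. It ran from -0.47 to 0.11 in control, from -0.49 to 0.05 in high protein and from -0.08 to 0.19 in high fat livers. Of the 6 high protein livers 5 lay below every high fat liver, and high protein 4 lay among them. High fat minus high protein was 0.36 ± 0.10 SE (1.29-fold, limma adjusted p = 0.0249), and neither diet passed against control (0.17, adjusted p = 0.399, for high fat and -0.19, adjusted p = 0.348, for high protein). The call was lost when high protein 2, 3, 5 or 6 or high fat 2 or 6 was left out (adjusted p between 0.0507 and 0.0575), with the deposited matrix (0.32, adjusted p = 0.174) and with the slide block (0.24, adjusted p = 0.414). On slide 1, the slide with both diets, the difference was 0.02.

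Of the lipases, Pnpla2, the adipose triglyceride lipase, and Mgll, which cleaves the last fatty acid from monoacylglycerol, did not pass in any comparison. Pnpla2 ran from -0.30 to -0.05 in control, from -0.26 to 0.07 in high protein and from -0.41 to -0.03 in high fat livers. High fat minus control was -0.05 for Pnpla2 (95% confidence interval -0.19 to 0.08) and -0.04 for Mgll (-0.23 to 0.15). High protein minus control was 0.03 for Pnpla2 (-0.11 to 0.17) and -0.06 for Mgll (-0.25 to 0.14). Control 6 had the lowest Mgll value, -0.39, in a control range up to 0.32.

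Pnpla3 showed a wide spread on both low fat diets and a narrow, low range on the high fat diet. Its main probe, at chr7:122162823-122162882 (rn4, per the file), ran from -2.08 to 1.45 in control livers (median -0.22), from -1.66 to 1.76 in high protein livers (median -0.22) and from -2.58 to -2.30 in high fat livers (median -2.40). In background-subtracted Cy5 signal the high fat livers ranged from 59.0 to 87.8, the control livers from 161 to 2997 and the high protein livers from 134 to 2602. Control 6 was the control liver nearest to the high fat livers, and no liver of another diet reached them. Pnpla3 fell on high fat against control (-2.25 ± 0.50 SE, log2, 4.74-fold, limma adjusted p = 0.0121) and against high protein (-2.25 ± 0.51, adjusted p = 0.0106). High protein minus control was 0.00 ± 0.50 (95% confidence interval -1.03 to 1.04). That interval rests on 1 spread shared by the 3 diets, with an SD of 1.13 in control, 1.23 in high protein and 0.09 in high fat livers. It is therefore too narrow for the 2 diets compared. Computed from the scanner's processed signals, without the offset of 50 that shrinks ratios of dim spots, the falls were -3.21 and -3.25. With the slide as a fixed block they were -2.29 (adjusted p = 0.0527) and -2.26 (adjusted p = 0.157), and within slides 1, 2 and 3 high fat minus control was -3.85, -1.93 and -2.14.

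A second Pnpla3 probe, A_44_P555839, at chr7:122155480-122155539 (rn4), was well above background in 7 of 7 control and 6 of 6 high protein livers but in only 1 of 6 high fat livers. It passed the filter through the other diets, so its values are a description and its test is not used. Its background-subtracted Cy5 signal was 66.8 to 550.3 in control, 46.1 to 407.5 in high protein and 10.7 to 31.7 in high fat livers, without overlap and in the same direction as the main probe.

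Pnpla5, a patatin with triglyceride lipase activity, differed from control about as much as Pnpla3 did. From processed signals, without the offset, its difference was -2.54, smaller in size than that of Pnpla3 (-3.21). Its probe, at chr7:122106543-122106602 (rn4), ran from -0.94 to 1.68 in control livers (median 0.02), from -1.29 to 0.90 in high protein livers (median 0.31) and from -2.12 to -1.88 in high fat livers (median -1.96). Background-subtracted Cy5 signal was 303 to 444 in high fat livers, well above background on every array, 1073 to 5678 in control livers and 508 to 3340 in high protein livers. The high fat livers had an SD of 0.10, against 0.92 in control and 0.89 in high protein livers, and did not overlap either. Pnpla5 fell on high fat against control (-2.32 ± 0.38 SE, log2, 5.01-fold, limma adjusted p = 0.00136) and against high protein (-2.05 ± 0.40, 4.14-fold, adjusted p = 0.00336). High protein minus control was -0.28 ± 0.38 (95% confidence interval -1.08 to 0.53, adjusted p = 0.773). With 1 spread shared by the 3 diets, that interval is too narrow for these 2 diets, which spread far more than high fat. The call against control held under every alternative and omission tried, with -2.32 (adjusted p = 0.0156) under the slide block and -3.29, -1.99 and -2.60 within slides 1, 2 and 3. The call against high protein was lost under the slide block (-2.04, adjusted p = 0.114), where slide 1 alone, with 1 high fat and 2 high protein rats, gave -1.78. Groups did not overlap for 2 of 10 members in high fat against control (Pnpla5 and Pnpla3, both lower, as in 1.15% of all features) and for 3 of 10 against high protein (with Gpam, all lower, as in 2.72%).

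**Figure D2:**
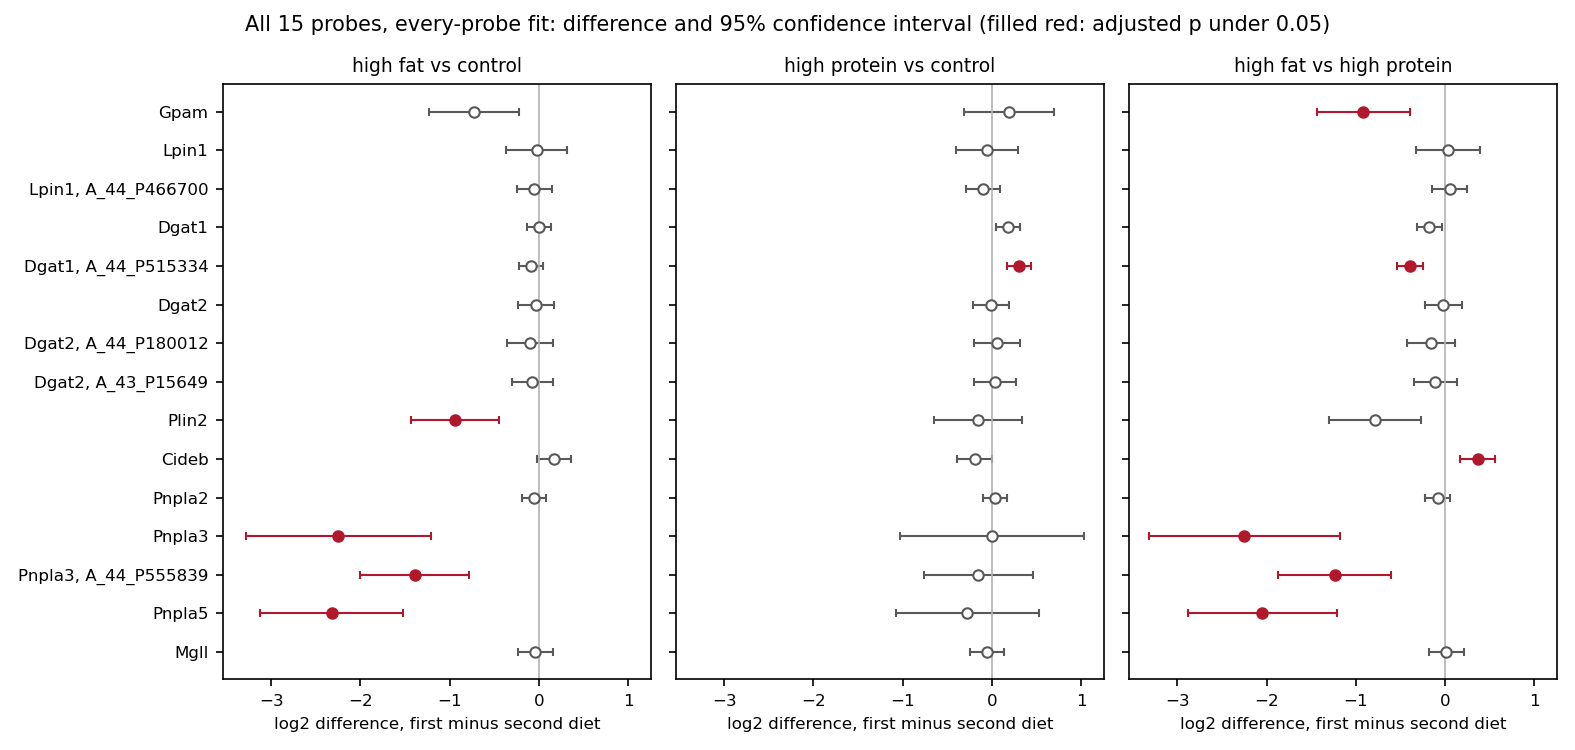
Log2 difference between diets, first minus second, for all 15 probes in the fit over every kept probe, with 95% confidence intervals; red filled points have an adjusted p under 0.05 (3.46% of all kept probes in high fat against control). The main Pnpla3 probe, Pnpla5 and Plin2 lie left of 0 in high fat against control, and every interval of Dgat2, Lpin1, Pnpla2 and Mgll includes 0. The second Pnpla3 probe, well above background in only 1 of 6 high fat livers, is drawn as a description, and its interval and fill are not used.

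Among rats of the same diet, Pnpla5 and Pnpla3 varied together. With each diet's mean removed, their correlation over 19 livers was r = 0.87 (0.83 without control 6). It was 0.87 in the 7 control, 0.89 in the 6 high protein and -0.23 in the 6 high fat livers, where neither gene varied much. Gpam followed both, with r = 0.72 to Pnpla3 and 0.71 to Pnpla5 (0.66 and 0.65 without control 6, and -0.16 and 0.36 within high fat livers). Dgat2 (0.63 and 0.59), Dgat1 (0.55 and 0.59) and Mgll (0.48 and 0.44) did so less closely, whereas Plin2 followed neither (0.02 and 0.02). Without control 6 these values were 0.57 and 0.52 for Dgat2, 0.34 and 0.45 for Dgat1 and 0.20 and 0.21 for Mgll. Within high fat livers they were 0.19 and -0.18 for Dgat2, -0.36 and -0.54 for Dgat1 and -0.23 and -0.32 for Mgll. The values of a liver come from 1 array and share its reference and its normalisation.

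**Figure D3:**
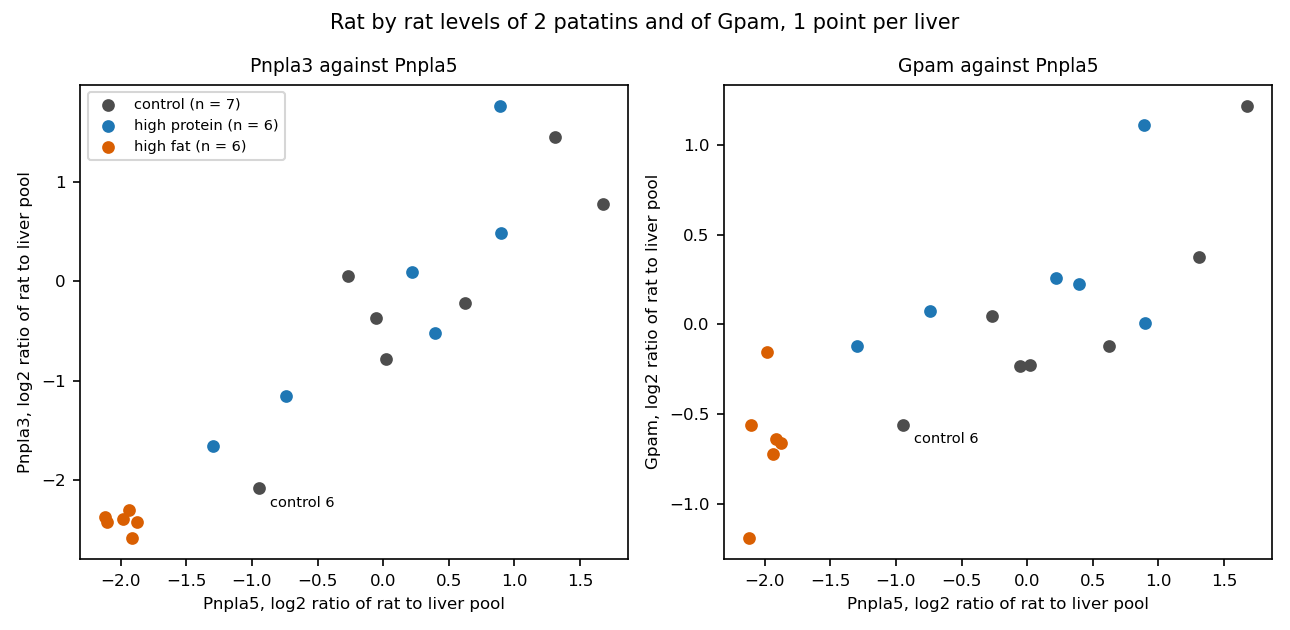
Log2 ratio of each liver for Pnpla3 (left) and Gpam (right) against Pnpla5, coloured by diet, 1 point per rat. For Pnpla3, control and high protein rats spread along a common rising line (r = 0.87 with diet means removed), and the 6 high fat rats cluster at its lower end. For Gpam (r = 0.71) the high fat rats share low Pnpla5 but spread from -1.19 to -0.16 in Gpam.

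The genes whose log2 ratios most resembled each called member over the 19 livers, diet differences included, were named by rank of Pearson's r. For Pnpla5 they were Elovl6, the fatty acid elongase (r = 0.96), Pdk1, a pyruvate dehydrogenase kinase (0.94), and Me1, the cytosolic malic enzyme (0.94). For Pnpla3 they were Odad4 (0.95), the sulfotransferase Sult4a1 (0.95) and Elovl6 (0.95). The ranking kept diet differences in, so a difference on high fat was built into it and is a description only. High fat minus control was -3.10 for Elovl6, -2.12 for Me1, -1.09 for Odad4, -1.03 for Sult4a1 and -0.89 for Pdk1. With diet means removed, r to Pnpla5 was 0.89 for Elovl6, 0.80 for Pdk1 and 0.82 for Me1. To Pnpla3 it was 0.88 for Odad4, 0.92 for Sult4a1 and 0.87 for Elovl6. For Gpam the nearest genes by the ranking were Tjp3, a tight junction protein (0.93), Eno1-ps9 (0.90) and Tm6sf2 (0.90). For Plin2 they were Litaf, Gckr, the glucokinase regulator, and Tnfaip8l1 (each 0.87), and for Cideb Ap3d1 (0.84), Flywch1 (0.83) and Asgr1, a receptor of hepatocytes (0.83).

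Pnpla5 and Pnpla3 are neighbours on chromosome 7 with starts that point apart. The genes around them were examined after these values were seen, in the gene order of GRCr8. Of the 12 genes on each side, 24 in all, 15 were measured, and high fat minus control was below 0 for 11 of them, with a median of -0.09 (-0.01 over all features). Called lower, as were 1.8% of all features, were the 2 nearest genes beyond Pnpla3: Samm50, of the mitochondrial outer membrane sorting machinery (-0.32, limma adjusted p = 0.0146), and Parvb, an adhesion protein (-0.30, adjusted p = 0.0227). The 2 genes beyond Pnpla5, Sult4a1 (-1.03, adjusted p = 0.0657) and Efcab6 (-0.68, adjusted p = 0.0656), did not pass, and neither was well above background on all 19 arrays. From processed signals, without the offset that shrinks ratios of dim spots, both passed (-2.76 and -2.26, limma adjusted p = 0.0177 and 0.0164). Both also passed with normexp fitted on every spot (-0.99 and -0.61, adjusted p = 0.0181 and 0.0165). Of 10 settings beside the main one, Sult4a1 passed in 4 and Efcab6 in 2, and of 19 omissions of 1 rat in 1 and 2. Detection of Sult4a1 and Efcab6 by diet is not given here, so their tests in either comparison are a description only. With the slide as a fixed block neither Samm50 (adjusted p = 0.0531) nor Parvb (adjusted p = 0.167) passed. Samm50 was also lost with Cy5 alone (adjusted p = 0.184), the deposited matrix (0.202) and a replicate block (0.0539), and Parvb with a replicate block (0.0613) and without high fat 1, 3 or 4 (between 0.0531 and 0.0635). Against high protein, Samm50 (-0.44, limma adjusted p = 0.00124) and Efcab6 (-0.71, adjusted p = 0.0442) were called lower, as were 3.61% of all features. Parvb (-0.14, adjusted p = 0.337) and Sult4a1 (-0.94, adjusted p = 0.078) did not pass there.

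**Figure D4:**
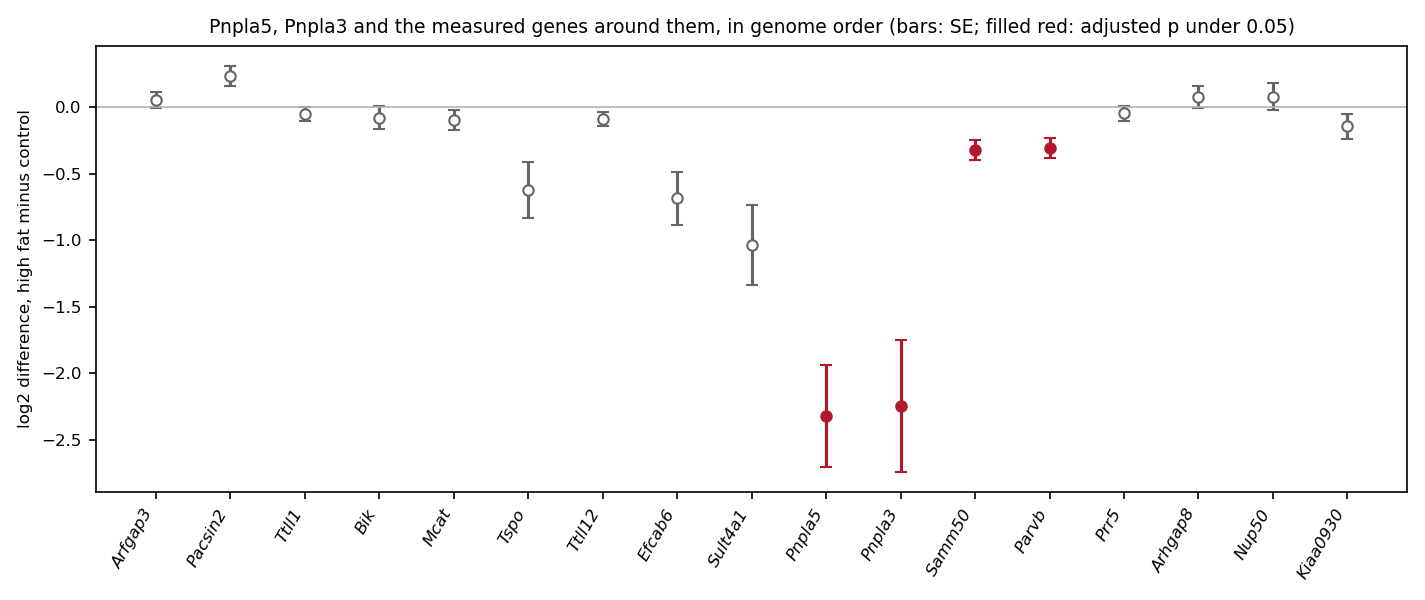
Log2 difference, high fat minus control, with its standard error, for Pnpla5, Pnpla3 and the 15 measured genes around them in genome order; red filled points have an adjusted p under 0.05. The 2 patatins lie near -2.3 and the genes next to them between -1.03 and -0.30, while the genes farther out lie between -0.14 and 0.24 except Tspo at -0.62.

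Of 51 other genes of the pathway 40 were measured, 6 stayed below the filter and 5 had no probe under their name. On high fat against control 3 of the 40 rose and 5 fell (20% called, against 3.63% of all features), with a median of 0.03. On high fat against high protein 2 rose and 4 fell (15% called, against 6.99%). On high protein against control limma called 0 of 40, against 0.395% of all features. Every high fat rat shared a slide with at least 1 control rat, while only high fat 1 shared one with high protein rats. With the slide as a fixed block 3 of the 8 calls against control remained (Gpd1, Hsd17b11 and Tm6sf2) and 0 of the 6 against high protein.

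In glycerolipid synthesis 2 of 14 measured genes were called on high fat against control, where 3.63% of all features were called. Gpd1, which makes glycerol 3-phosphate from a glycolytic intermediate, ran from -0.40 to 0.16 in control, from -0.47 to 0.24 in high protein and from -0.86 to -0.37 in high fat livers. Gpd1 fell against control (-0.60 ± 0.12, limma adjusted p = 0.00783) and against high protein (-0.55 ± 0.13, adjusted p = 0.0119). Plpp3, a phosphatase of phosphatidate and related lipids, rose against control (0.63 ± 0.17, adjusted p = 0.0406), a call lost in 12 of 19 omissions of 1 rat (controls 1, 2, 3, 5 and 6, high fat 2 to 6, high protein 2 and 5; adjusted p between 0.0511 and 0.11) and without the filter. Its other probe did not pass against control (0.37, adjusted p = 0.201). That probe rose against high protein (0.57, limma adjusted p = 0.0236), where the main probe was not called. The other 12, among them Gpat4, Agpat2 and Lpin2, were not called.

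On the droplet, 2 of 7 measured genes were called on high fat against control, in opposite directions, with 3.63% of all features called. Hsd17b11 ran from -0.36 to -0.05 in control and from 0.01 to 0.45 in high fat livers, without overlap, and rose (0.46 ± 0.08, limma adjusted p = 0.00143). In high protein livers Hsd17b11 ran from -0.12 to 0.26, overlapping high fat, and it was not called between high protein and either other diet. Its relative Hsd17b13, also a droplet protein of hepatocytes, fell (-0.45 ± 0.12, adjusted p = 0.0475), a call lost in 14 of 19 omissions (every rat but control 5 and 6, high fat 4 and high protein 1 and 5; adjusted p between 0.0519 and 0.126). That call was also lost in 7 of 11 processing settings: normexp on every spot, processed signals, Cy5 alone, no filter, the deposited matrix, and the slide and replicate blocks. Cidea, which promotes droplet fusion, ran from -1.45 to 0.60 in high protein and from -0.11 to 1.69 in high fat livers and rose against high protein (1.33 ± 0.38, adjusted p = 0.0375), a call lost without high protein 1, 2, 3 or 6 or high fat 1, 3 or 4 (adjusted p between 0.0563 and 0.095), without the filter and with a replicate block. Of the adipocyte markers, Adipoq and Lep were well above background on 0 of 19 arrays, and the summed log2 ratio of the 2 measured ones (of 6 listed) was between 0.84 and 1.24 in high fat and between 0.81 and 1.13 in high protein livers.

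In lipolysis 3 of 14 measured genes were called on high fat against control, with 3.63% of all features called. Abhd6, a monoacylglycerol lipase, ran from -0.43 to -0.04 in high fat and from -0.01 to 0.44 in control livers. It fell against control (-0.43 ± 0.10, limma adjusted p = 0.0118) and high protein (-0.40 ± 0.10, adjusted p = 0.0186), and its other probe fell against control too (-0.42, adjusted p = 0.014). With Cy5 alone the call against control was lost. Lipc, the hepatic lipase, fell against control (-0.32 ± 0.08, adjusted p = 0.025), a call lost without control 1 or high fat 1, 2 or 3 (adjusted p between 0.0537 and 0.0598). The Lipc call was also lost in 5 of 11 settings: processed signals, Cy5 alone, the deposited matrix, and the slide and replicate blocks. Ces1d, a carboxylesterase with triglyceride hydrolase activity, rose against control (0.75 ± 0.20, adjusted p = 0.0375) and high protein (0.78 ± 0.21, adjusted p = 0.0243). Its first call was lost without any control but control 5 or without high fat 2 to 5 (adjusted p between 0.05 and 0.0922), and its second without high protein 2 or 3 or high fat 3, 4 or 5 (adjusted p between 0.0524 and 0.0623). Both Ces1d calls were lost with Cy5 alone, the first also without the filter and with a replicate block, and the second with the deposited matrix. G0s2, the inhibitor of Pnpla2, did not pass (-0.85, adjusted p = 0.201), and Pnpla4, Pnpla6, Pnpla7 and Pnpla8, patatins related to the members, were not called in any comparison.

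In lipoprotein loading and sterol esters 1 of 5 genes was called on high fat against control, with 3.63% of all features called. Tm6sf2, which helps load lipid onto very low density lipoprotein, ran from -0.54 to -0.22 in high fat, from -0.11 to 0.89 in control and from 0.05 to 0.54 in high protein livers. It fell against control (-0.64 ± 0.13, limma adjusted p = 0.00804) and high protein (-0.56 ± 0.14, adjusted p = 0.0167), and the call against control was lost with Cy5 alone. Soat2, which makes cholesterol esters, fell against high protein (-0.41 ± 0.11, adjusted p = 0.0224), a call lost without high protein 3 or high fat 4 or 5 (adjusted p = 0.0519, 0.0577 and 0.0544) and with Cy5 alone. Apob and Mttp, the scaffold and the lipid transfer protein of these particles, were not called.

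**Figure D5:**
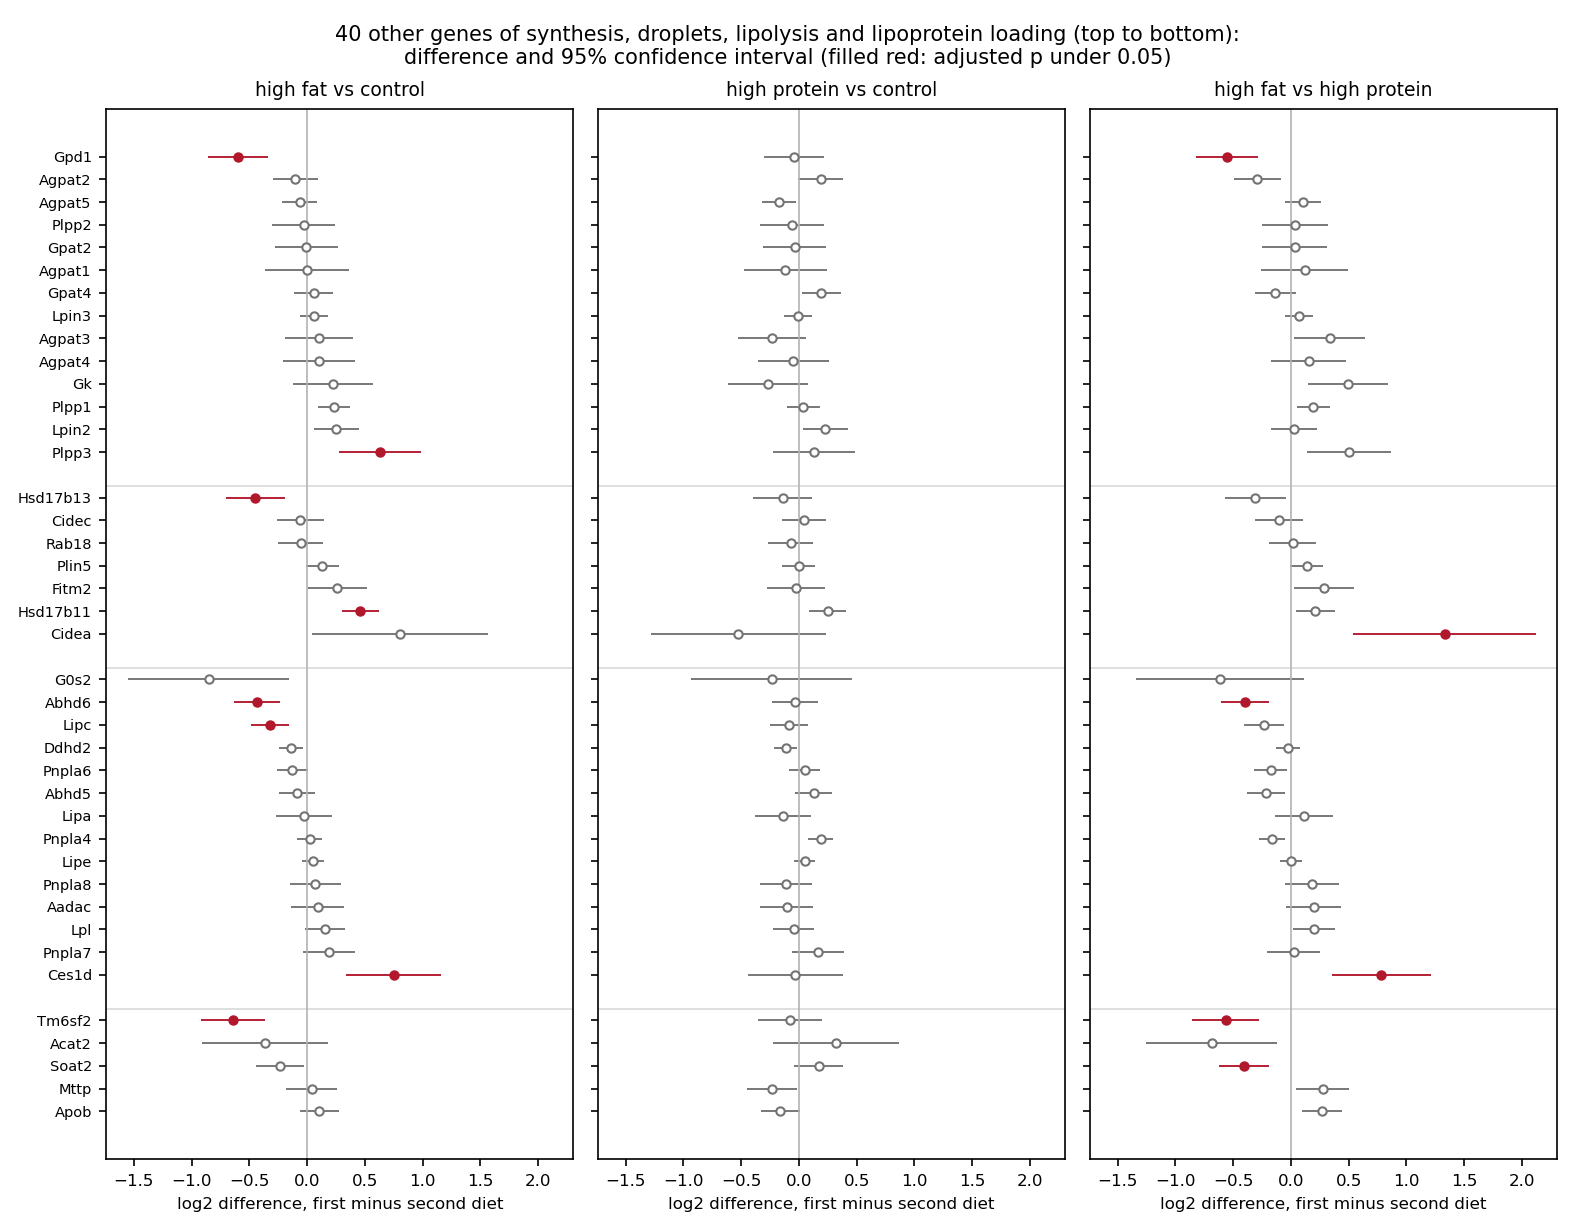
Log2 difference between diets, first minus second, with 95% confidence intervals, for the 40 measured pathway genes in 4 blocks (from the top: glycerolipid synthesis, droplet, lipolysis, lipoprotein loading and sterol esters); red filled points have an adjusted p under 0.05. Calls lie on both sides of 0 in high fat against control, 3 higher and 5 lower, and none is called in high protein against control.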

How the data were processed

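The deposited scanner files give, per the file headers, the intensity of each spot and of its surroundings; the submitters' processing notes name Agilent Feature Extraction 10.5.1.1. The authors also deposited a matrix of log2 values, whose columns share a median of 8.20 and whose making is not given in the sources used here; it served as an alternative only. The genome build rn4 is the one in the files.

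Mean signals were background-corrected by normexp (offset 50) and loess-normalised within arrays, without a step between arrays. After earlier work had seen results, the 40 spots on 5 arrays with local background more than 50 above their signal were dropped before normexp, and normexp on every spot is an alternative. Probes well above background in Cy5 on at least 6 of 19 arrays were kept (25292), giving 22007 features, 11556 of them named genes. RefSeq tables named 21026 of 41012 probes.

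All differences are from 1 limma model (R 4.3.3, limma 3.58.1) over the 3 diets, two-sided, with p adjusted over all features by Benjamini-Hochberg. The model takes 1 spread per feature for all 3 diets. Its SEs, intervals and p values, the F test included, are therefore approximate where the SDs of the diets differ. The fit was tried on simulated data with planted shifts and the same SD in every diet. Pnpla5 and Pnpla3, with a far smaller SD on high fat, depart from that setting, so it does not check their differences. Each array is 1 animal, and their number limits precision. Slides hold up to 4 arrays, and only slide 1 holds high fat and high protein rats together. Members and gene lists were chosen with earlier results of these data known. Named pathway genes are those called in any comparison, with a few uncalled ones given for context, chosen after their values were seen. Like-gene ranks use Pearson's r over 19 livers. Alternatives were processed signals, Cy5 alone, scaling, filters, the deposited matrix, slide and replicate blocks, and leaving out each rat.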

Additional observations from a re-analysis of the deposited data

Results flagged for a closer look

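In 45 groups of a member's probe within a diet, 2 held a liver far from the others by Dixon's criterion, and chance alone flags about 1 in 20 groups. For Gpam, high protein 1 was highest of its 6 rats at 1.11, the next being 0.26, and without it high fat minus high protein was -0.74 (limma adjusted p = 0.0721). For the Lpin1 probe A_44_P466700, high protein 3 was highest at 0.13, with the other 5 between -0.23 and -0.16, and no comparison of this probe was called with or without it.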

How the results depend on the processing

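With the array slide as a fixed block, 1 member was called in high fat against control in place of 3, and 0 in place of 4 against high protein; pathway genes called went from 8 to 3 and from 6 to 0, and all features from 799 to 440 and from 1538 to 344. High fat and high protein rats share 1 slide, which leaves little to compare. Against control, 3 pathway genes were called with Cy5 alone (572 of 22007 features) and 5 without the filter (694 of 36331 features). Leaving out 1 rat gave 2 to 5 members against high protein and 4 to 8 pathway genes against control. High protein against control called 87 features, and 52 with normexp on every spot, 50 from processed signals, 44 with Cy5 alone, 20 with the slide block and 18 to 366 with 1 rat left out; of the 87, 59 were higher, and of 75 in the deposited matrix, 68. The causes were not tested.

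Of 1332 values for the members' 45 probe comparisons over 30 alternatives, 1271 kept direction and side of the threshold, 48 calls were lost, 5 were gained and 8 uncalled values changed sign. These counts include the Pnpla3 probe A_44_P555839, whose test is not used above. Sign changes were Dgat2 under the slide block (0.066 against control, 0.13 against high protein), Dgat2 in high protein against control with Cy5 alone (0.085) and the deposited matrix (0.11), Mgll with Cy5 alone (0.062 for high fat, 0.049 for high protein, against control), and under the slide block the Dgat2 probe A_44_P180012 (0.031) and the Lpin1 probe A_44_P466700 (-0.061), both against high protein.

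The labels pair no rats. Like-numbered rats of different diets had a mean correlation of -0.01 over 18 pairs, against 0.00 over 102 unlike pairs, and 5 of 19 rats correlated best with their own number. A replicate block gave 5 pathway genes in high fat against control, where 643 of 22007 features were called, and 157 features for high protein against control. With it Gpam was called in high fat against control (-0.54, limma adjusted p = 0.0118) and Cideb was not called against high protein (adjusted p = 0.0524).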

Other observations

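Within the high fat group the main probes of Lpin1, Plin2 and Gpam spread widely (SD 0.49, 0.72 and 0.33), while the SDs of the other 7 members lay between 0.085 and 0.12. The other Lpin1 probe, A_44_P466700, had an SD of 0.22, with high fat 4 highest (0.26) and high fat 3 lowest (-0.34). Values below are of main probes. High fat 4 had the highest Lpin1 of all 19 livers (0.82) and the lowest Plin2 (-1.88) and Gpam (-1.19), and high fat 1 the highest Plin2 (0.31) and Gpam (-0.16) and the lowest Lpin1 (-0.44) of the 6. Over these 6 livers r was 0.96 between Gpam and Plin2, -0.83 between Lpin1 and Plin2 and -0.88 between Gpam and Lpin1, against 0.31, 0.67 and 0.28 in the 7 control livers and -0.16, -0.58 and 0.15 in the 6 high protein livers. These pairs were picked after the values were seen, and the difference between diets was not tested. High fat 1 lies on slide 1, high fat 2 and 3 on slide 2 and high fat 4, 5 and 6 on slide 3, and the part of the slides in this was not tested.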
